A study of Mus musculus with 8 samples.

Results

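The BCL2 family decides at the outer mitochondrial membrane whether a cell lives or dies, and 10 of its genes were followed here in chronically stimulated mouse CD8+ T cells. They were taken by symbol, as *Bcl2*, *Bcl2l1*, *Mcl1*, *Bcl2a1b*, *Bcl2l11*, *Bax*, *Bak1*, *Bbc3*, *Pmaip1* and *Bid*, from a table of 22520 genes and assembled transcripts, and all 10 were found in it. CD8+ T cells from mouse spleen were stimulated for 6 days with antibodies to CD3 and CD28 in the presence of IL-2, a regime that the study uses to bring on T cell exhaustion. DADA (diisopropylamine dichloroacetate, an inhibitor of the pyruvate dehydrogenase kinases) was added at 40 µM from day 3 to 4 cultures, and an equal volume of its solvent DMSO to the other 4, and bulk RNA-seq libraries were made on day 6. Both groups therefore share the stimulation, and no genetic change is described for either: the labels mark the groups under genotype only as control (DMSO) and model (DADA). The labels give neither strain, sex nor age. The study lists C57BL/6J mice among its animals without tying them to these libraries.

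BCL2 family proteins of 3 kinds act on each other. The pro-survival proteins BCL-2, BCL-XL (from *Bcl2l1*), MCL-1 and A1 (from *Bcl2a1b* and its copies) hold back the effectors BAX and BAK (from *Bak1*), which otherwise form pores in the mitochondrial membrane and release cytochrome c. The BH3-only proteins BIM (from *Bcl2l11*), PUMA (from *Bbc3*), NOXA (from *Pmaip1*) and BID bind the pro-survival proteins, and some of them activate the effectors directly. In T cells, BCL-2 is known for supporting resting and memory cells, BCL-XL and A1 for being induced by activation, MCL-1 for being needed throughout, and BIM for removing activated cells when a response ends.

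Values are FPKM, that is fragment numbers divided by the length of the transcript and by the mapped fragments of the library. Levels can thus be compared approximately between genes and between libraries. The FPKM of all genes summed to 450473 to 456939 in the DMSO libraries and to 438299 to 449480 in the DADA libraries. The FPKM values, sums and percent changes given below are not corrected for this difference. Single genes were tested as log2(FPKM + 1) with limma over 10666 genes, those at 1 FPKM or more in 4 or more libraries. A call is an adjusted p under 0.05. A change on the log2 scale is DADA minus DMSO, and it understates the change of genes with low FPKM. The design text calls the 4 libraries of a group biological replicates without saying what was separate, so the p-values measure the spread between these samples. In bulk libraries, fewer cells of a type and less RNA per cell cannot be told apart.

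All 10 BCL2 family transcripts passed the threshold, 5 higher and 5 lower in DADA-treated cells, and the family did not move as a block. Calls were common in this comparison: 66.2% of all genes tested were called, 30.9% higher and 35.3% lower, so that 10 of 10 stands against a high background. Among pro-survival genes, *Mcl1* and *Bcl2* rose while *Bcl2l1* and *Bcl2a1b* fell. Both effectors fell. Among BH3-only genes, *Pmaip1*, *Bcl2l11* and *Bbc3* rose and *Bid* fell. The median log2 fold change of the 10 was 0.02, beside -0.02 over all genes tested, and the median size of their changes was 0.41, beside 0.21. This comparison of sizes was not matched for level. All 10 had a mean above 5 FPKM, as did only 8190 genes, and the scale shrinks changes at low FPKM. For 9 of the 10, with *Bak1* as the exception, no DADA library overlapped a DMSO library, as was the case for 60.6% of all genes tested.

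**Figure D1:**
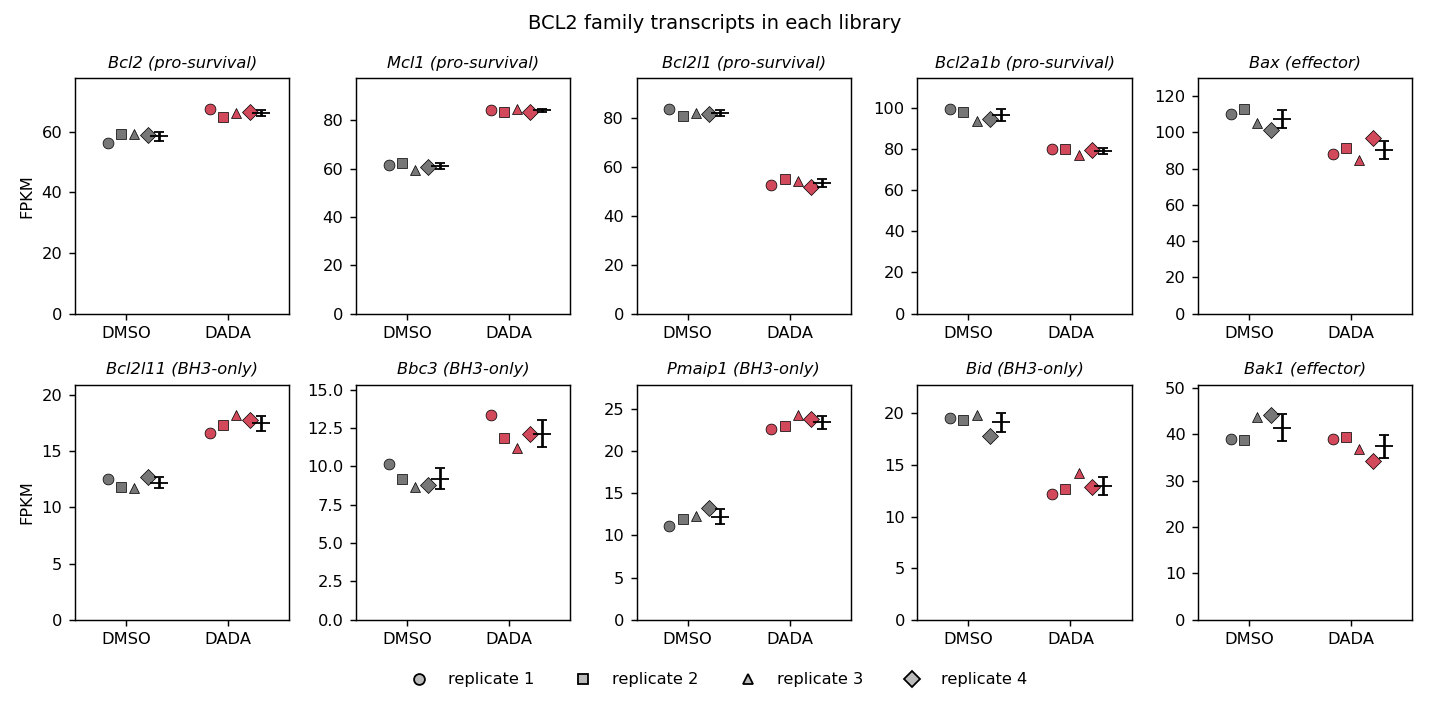
FPKM of the 10 BCL2 family transcripts in each library, with DMSO in grey and DADA in red, a symbol for each replicate number, and the mean with its SD (n = 4) beside the points. The groups are apart in every panel except that of *Bak1*, where DADA 1 and DADA 2 lie at the level of DMSO 1 and DMSO 2.

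*Bcl2l1* (ENSMUSG00000007659), the gene of BCL-XL, had the largest fall of the family. It was at 83.6, 80.7, 81.9 and 81.7 FPKM with DMSO (libraries 1 to 4, here and throughout) and at 52.5, 55.2, 54.4 and 51.6 FPKM with DADA. All DADA libraries were far below all DMSO libraries, and the spread within each group was small. The mean fell by 34.8%, from 82.0 ± 1.19 to 53.4 ± 1.64 FPKM (SD, n = 4 each). On the log2 scale this was -0.61 (standard error of 0.0265, adjusted p = 2.50e-08 by limma). This change was larger in size than that of 89.27% of the genes tested. The gene has 9 annotated transcripts, which encode long and short forms of opposite function, and the values do not separate them.

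*Mcl1* (ENSMUSG00000038612), which encodes a short-lived protein that NOXA and BIM bind, went the other way. It was at 61.6, 62.5, 59.5 and 60.6 FPKM with DMSO and at 84.5, 83.7, 84.7 and 83.7 FPKM with DADA. The DADA libraries lay close together and above every DMSO library. The mean rose by 37.8%, from 61.0 ± 1.31 to 84.1 ± 0.533 FPKM (log2 fold change 0.46 with a standard error of 0.0221, adjusted p = 5.34e-08 by limma).

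*Bcl2* (ENSMUSG00000057329), the founding member, also rose, but less. It was at 56.3, 59.4, 59.3 and 59.1 FPKM with DMSO and at 67.5, 64.8, 66.1 and 66.5 FPKM with DADA. DMSO 1 was the lowest of its group, and the groups did not overlap. The rise of 13.2%, from 58.5 ± 1.47 to 66.2 ± 1.13 FPKM, corresponded to 0.18 on the log2 scale (standard error of 0.0253, adjusted p = 1.49e-04 by limma), which is smaller in size than that of most genes tested. Without DMSO 1 it was 0.16.

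*Bcl2a1b* (ENSMUSG00000089929) encodes A1, an activation-induced survival protein and a target of NF-κB. It was at 99.2, 98.0, 93.3 and 94.2 FPKM with DMSO and at 80.1, 79.9, 77.0 and 79.3 FPKM with DADA. Every DADA library was lower than every DMSO library. The mean fell by 17.8%, from 96.2 ± 2.88 to 79.1 ± 1.44 FPKM (log2 fold change -0.28 with a standard error of 0.0265, adjusted p = 7.42e-06 by limma).

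The mouse carries several near-identical copies of this gene, and how the authors' assembly shared fragments between them is not given, so the value of a single copy is uncertain. The coding sequences of *Bcl2a1a*, *Bcl2a1b* and *Bcl2a1d* (GENCODE M21, GRCm38) are each 519 bases long and differ at 12 positions in all. *Bcl2a1b* differs from *Bcl2a1d* at 6 positions (98.84% identity) and from *Bcl2a1a* at 11 (97.88%). Of the stretches of 150 bases, the length of a read, 14.2% of the *Bcl2a1b* transcript are also found in another copy, against 28.2% for *Bcl2a1a* and 30.3% for *Bcl2a1d*. The first 60 coding bases are shown because they hold 6 of the 12 positions that tell the copies apart, given in capitals.
*Bcl2a1a*: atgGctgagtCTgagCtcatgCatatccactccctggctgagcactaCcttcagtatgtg
*Bcl2a1b*: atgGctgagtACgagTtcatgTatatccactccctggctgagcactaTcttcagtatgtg
*Bcl2a1d*: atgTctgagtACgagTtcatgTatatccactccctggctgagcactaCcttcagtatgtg

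All 3 copies moved down. *Bcl2a1d* fell from 60.0 ± 2.99 to 43.3 ± 1.38 FPKM (log2 fold change -0.46, adjusted p = 2.54e-06 by limma). *Bcl2a1a*, named because it is a copy and outside the naming rule, fell from 6.43 ± 0.685 to 4.86 ± 0.123 FPKM (log2 fold change -0.34, adjusted p = 8.79e-04 by limma). *Bcl2a1c* was listed at 0 in every library. The sum of the copies was between 158 and 166 FPKM with DMSO and between 125 and 129 FPKM with DADA. It depends little on how fragments were divided among the copies, whose transcripts are 817 to 863 bases long. Fragments that were dropped or counted more than once would still affect the sum. Fitted in place of the single copies, the sum changed by -0.35 on the log2 scale (limma, adjusted p = 3.23e-07). The copies together were thus lower in the deposited values, and how the authors' processing handled shared fragments could not be checked. The ratio of *Bcl2a1b* to *Bcl2a1d* was between 1.45 and 1.68 with DMSO and between 1.74 and 1.92 with DADA.

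The 2 effectors were both lower with DADA, one clearly and one at the edge of the test. *Bax* (ENSMUSG00000003873), the cytosolic effector that moves to mitochondria in dying cells, had the highest FPKM of the family in both groups. It was at 110, 113, 105 and 101 FPKM with DMSO and at 88.3, 91.2, 84.9 and 96.7 FPKM with DADA. DADA 4 came closest to the DMSO libraries without reaching them. The mean fell by 15.8%, from 107 ± 5.07 to 90.3 ± 4.98 FPKM (log2 fold change -0.25 with a standard error of 0.0444, adjusted p = 7.02e-04 by limma).

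*Bak1* (ENSMUSG00000057789), whose protein resides on the mitochondrial membrane, was at 39.0, 38.8, 43.8 and 44.1 FPKM with DMSO and at 39.0, 39.5, 36.8 and 34.2 FPKM with DADA. DMSO 1 and DMSO 2 lay at the level of DADA 1 and DADA 2, and the difference came from the other 2 libraries of each group. The means were 41.4 ± 2.91 and 37.4 ± 2.42 FPKM, a log2 fold change of -0.14 with an interval of -0.27 to -0.02 (limma, adjusted p = 0.0466). Leaving out any of DMSO 3, DMSO 4, DADA 3 and DADA 4 ended the call, with log2 fold changes of -0.12, -0.11, -0.14 and -0.10 (limma, adjusted p = 0.120, 0.121, 0.0919 and 0.124). It was also lost in 6 of the 8 other settings tried, among them TPM scaling (-0.11, limma, adjusted p = 0.111) and quantile normalization (-0.10, limma, adjusted p = 0.125), while the direction held throughout.

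**Figure D2:**
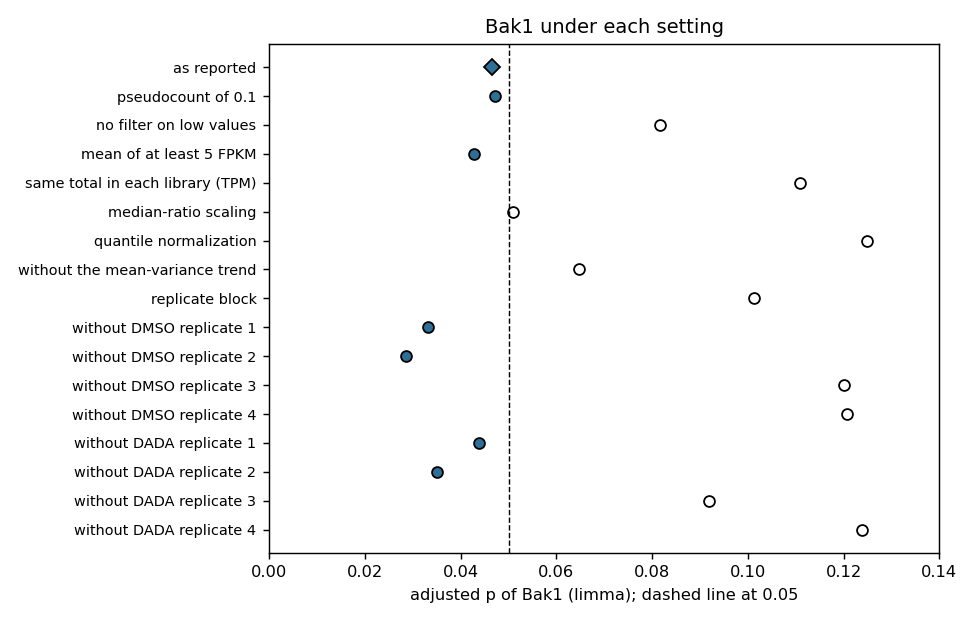
Adjusted p of *Bak1* (limma, x axis) as reported and in the 16 other settings (y axis), with the dashed line at 0.05 and filled symbols below it. The reported value of 0.0466 sits beside the line, and 10 of the 16 settings lie to its right.

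*Pmaip1* (ENSMUSG00000024521) had the largest change of the family in either direction. Its protein NOXA is a BH3-only protein that binds chiefly MCL-1 and A1. *Pmaip1* was at 11.1, 12.0, 12.3 and 13.3 FPKM with DMSO and at 22.6, 22.9, 24.2 and 23.8 FPKM with DADA. The lowest DADA library was far above the highest DMSO library. The mean rose by 91.8%, from 12.2 ± 0.887 to 23.4 ± 0.744 FPKM (log2 fold change 0.89 with a standard error of 0.0490, adjusted p = 1.34e-07 by limma). Among the genes tested, 94.9% changed by less.

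*Bcl2l11* (ENSMUSG00000027381) encodes BIM, which binds all the pro-survival proteins and can activate the effectors. It was at 12.5, 11.8, 11.7 and 12.7 FPKM with DMSO and at 16.6, 17.3, 18.2 and 17.8 FPKM with DADA. Every DADA library was above every DMSO library. The mean rose by 43.4%, from 12.2 ± 0.498 to 17.5 ± 0.666 FPKM (log2 fold change 0.49 with a standard error of 0.0398, adjusted p = 2.46e-06 by limma). The 8 annotated transcripts of *Bcl2l11*, which encode forms of different strength, are summed in these values.

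*Bbc3* (ENSMUSG00000002083), the gene of the p53-inducible protein PUMA, had the lowest FPKM of the family in both groups. It was at 10.2, 9.20, 8.64 and 8.76 FPKM with DMSO and at 13.3, 11.9, 11.2 and 12.1 FPKM with DADA. The library numbered 1 was the highest in both groups, and the groups did not overlap. The mean rose from 9.19 ± 0.694 to 12.1 ± 0.887 FPKM (log2 fold change 0.37 with a standard error of 0.0611, adjusted p = 4.25e-04 by limma). It was the least deeply covered member, at an estimated 215 fragments or more per library.

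*Bid* (ENSMUSG00000004446) was the exception among the BH3-only genes. Its protein links death receptors to the mitochondria once caspase-8 has cut it. *Bid* was at 19.6, 19.4, 19.8 and 17.8 FPKM with DMSO and at 12.2, 12.7, 14.2 and 12.9 FPKM with DADA. All DADA libraries were below all DMSO libraries. The mean fell by 32.2%, from 19.1 ± 0.902 to 13.0 ± 0.857 FPKM (log2 fold change -0.53 with a standard error of 0.0501, adjusted p = 7.41e-06 by limma). Exons of *Bid* overlap those of *Bcl2l13* on the opposite strand, which was at 15.5 FPKM at most, and fragments from the overlap can be told apart only if counting used strand. The study's methods name a kit described as stranded, the labels name another kit, and the strand setting of the counting is not given in the sources used here. Other exon overlaps of the members were with genes of low FPKM, at most 6.53 for Gm29094 (*Bcl2a1b*), 1.71 for *Ggnbp1* (*Bak1*) and 0.658 for Gm45808 (*Bax*). *Bcl2l13*, named for its overlap with *Bid*, was lower as well (log2 fold change -0.27, limma, adjusted p = 6.94e-04).

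**Figure D3:**
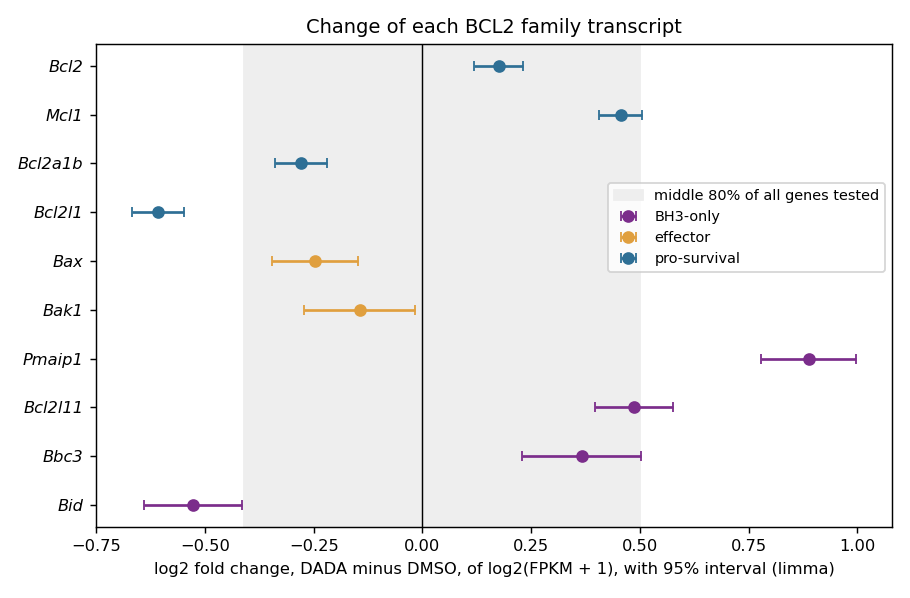
Log2 fold change (DADA minus DMSO, on log2(FPKM + 1)) of each BCL2 family transcript with its 95% interval from limma, coloured by class, over a grey band that holds the middle 80% of all genes tested. *Bcl2l1* and *Bid* lie left of the band, which runs from -0.41 to 0.50, and *Pmaip1* lies right of it.

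The order of the levels changed with these shifts. With DMSO, the FPKM ran from *Bax* through *Bcl2a1b*, *Bcl2l1*, *Mcl1*, *Bcl2*, *Bak1* and *Bid* to *Pmaip1* and *Bcl2l11*, with *Bbc3* last. *Pmaip1* and *Bcl2l11* overlapped between libraries at that point of the order and did not differ beyond their spread. With DADA, *Mcl1* had moved from the fourth place to the second, just below *Bax*, at 83.7 to 84.7 FPKM against 84.9 to 96.7 FPKM. *Bcl2l1* had moved from the third place to the fifth, below *Bcl2*. *Bid* had moved from the seventh place to the ninth, where it overlapped *Bbc3*.

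Within the pro-survival class, the makeup changed. The total was slightly lower with DADA, in FPKM not corrected for the lower FPKM sums of the DADA libraries. The summed FPKM of *Bcl2*, *Bcl2l1*, *Mcl1* and *Bcl2a1b* was 298 ± 3.49 with DMSO (294 to 301) and 283 ± 1.53 with DADA (281 to 285). *Bcl2l1* went from 27.5% of this sum to 18.9%, and *Mcl1* from 20.5% to 29.7%, so the pair changed places. With the copies *Bcl2a1a* and *Bcl2a1d* added, the sum was 364 ± 3.40 FPKM with DMSO (359 to 368) and 331 ± 2.66 FPKM with DADA (327 to 333). Of this larger sum, *Bcl2l1* went from 22.5% to 16.1% and *Mcl1* from 16.8% to 25.4%. Of the sum without the copies, *Bcl2a1b* went from 32.3% to 27.9% and *Bcl2* from 19.7% to 23.4%. The ratio of *Mcl1* to *Bcl2l1* was between 0.727 and 0.775 in the DMSO libraries and between 1.52 and 1.62 in the DADA libraries. The ratio of *Bcl2* to *Bcl2l1* crossed 1 as well, from 0.714 ± 0.0274 to 1.24 ± 0.0562. These sums and ratios are descriptions of members already tested, and no further test was run on them.

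The BH3-only class grew in total. Its summed FPKM was 52.7 ± 0.425 with DMSO (52.4 to 53.3) and 65.9 ± 1.48 with DADA (64.7 to 67.8). *Bid* had the largest share with DMSO, 36.3%, and held 19.7% with DADA, whereas *Pmaip1* went from 23.1% to 35.4%. The ratio of *Bcl2l11* to *Bid* went from 0.638 ± 0.0545 to 1.35 ± 0.0453. Transcripts of NOXA and of its partner MCL-1 both rose, but *Pmaip1* by more, and the ratio of *Mcl1* to *Pmaip1* went from 5.03 ± 0.427 to 3.60 ± 0.114. In the same way the ratio of *Bcl2* to *Bcl2l11* went from 4.81 ± 0.276 to 3.80 ± 0.183. The ratio of the pro-survival to the BH3-only sum was between 5.60 and 5.74 with DMSO and between 4.16 and 4.40 with DADA. The effector sum went from 149 ± 2.51 to 128 ± 4.27 FPKM. RNA ratios say nothing of protein, and the proteins of this family, MCL-1 and NOXA above all, are also controlled through their stability.

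**Figure D4:**
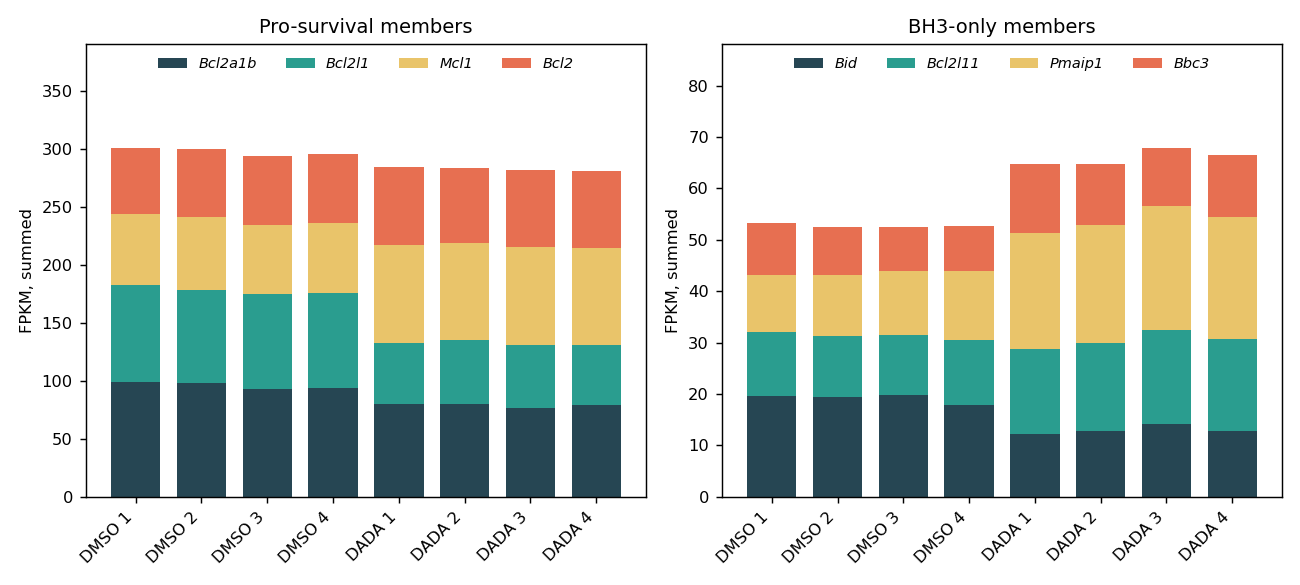
Summed FPKM (y axis) of the 4 pro-survival members (left) and the 4 BH3-only members (right) in each library (x axis), each bar split by gene. The left bars reach 294 to 301 FPKM in the DMSO libraries and 281 to 285 FPKM in the DADA libraries, where the *Bcl2l1* part is smaller and the *Mcl1* part larger, and the right bars are taller with DADA, with a larger *Pmaip1* and a smaller *Bid* part.

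Of 14 further BCL2 family genes, 8 passed the filter, of which 2 were higher, 4 lower and 2 not called, with a median log2 fold change of -0.19. *Bad* and *Bmf*, both BH3-only genes whose proteins are held inactive by other proteins in healthy cells, rose. *Bad* went from 6.83 ± 0.194 to 8.52 ± 0.147 FPKM (log2 fold change 0.28, limma, adjusted p = 6.93e-05). *Bmf* went from 0.938 ± 0.118 to 1.52 ± 0.192 FPKM (0.38, limma, adjusted p = 0.00125). It lay near the filter limit of 1 FPKM, at 0.860 to 1.11 FPKM with DMSO and 1.34 to 1.77 FPKM with DADA. *Bmf* thus passed the filter through the DADA libraries, where it was higher, and its place in the count of higher genes depends on that. *Bik*, another BH3-only gene, was at 2.94, 0.946, 1.61 and 2.54 FPKM with DMSO and at 0.975, 1.18, 0.779 and 1.04 FPKM with DADA. DMSO 2 lay among the DADA libraries. *Bik* was called lower (-0.55, limma, adjusted p = 0.0301), but leaving out any of DMSO 1, DMSO 4, DADA 1, DADA 3 and DADA 4 ended the call, with log2 fold changes of -0.40, -0.45, -0.54, -0.49 and -0.56. The pro-survival gene *Bcl2l2* (BCL-W) was at 10.6 ± 0.333 and 11.1 ± 0.461 FPKM and was not called (0.06, limma, adjusted p = 0.186).

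All 17 listed genes of the caspase and mitochondrial death machinery passed the filter, of which 9 were higher, 6 lower and 2 not called, with a median log2 fold change of 0.15. *Casp6*, a caspase that cuts nuclear lamins, rose from 7.45 ± 0.391 to 16.6 ± 0.334 FPKM (1.06, limma, adjusted p = 9.85e-09). Genes of proteins that leave the mitochondria after pore formation went both ways. *Htra2*, a mitochondrial protease, fell from 44.8 ± 2.20 to 28.1 ± 0.592 FPKM (-0.66, limma, adjusted p = 1.26e-07), and *Endog*, a nuclease, rose from 4.70 ± 0.360 to 7.46 ± 0.566 FPKM (0.57, limma, adjusted p = 2.22e-05). Cytochrome c (*Cycs*, outside the rule) went from 60.7 ± 0.574 to 49.3 ± 2.75 FPKM (-0.30, limma, adjusted p = 5.82e-05). The apoptosome genes *Apaf1* and *Casp9*, also outside the rule, both rose by 0.28 on the log2 scale (limma, adjusted p = 4.21e-05 and 0.00216). Of the inhibitor of apoptosis family, *Birc3* rose from 30.3 ± 1.50 to 45.4 ± 1.37 FPKM (0.57, limma, adjusted p = 5.40e-07) and *Birc5* (survivin, which also serves in mitosis) fell from 77.0 ± 5.73 to 52.4 ± 1.18 FPKM (-0.54, limma, adjusted p = 4.30e-06).

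**Figure D5:**
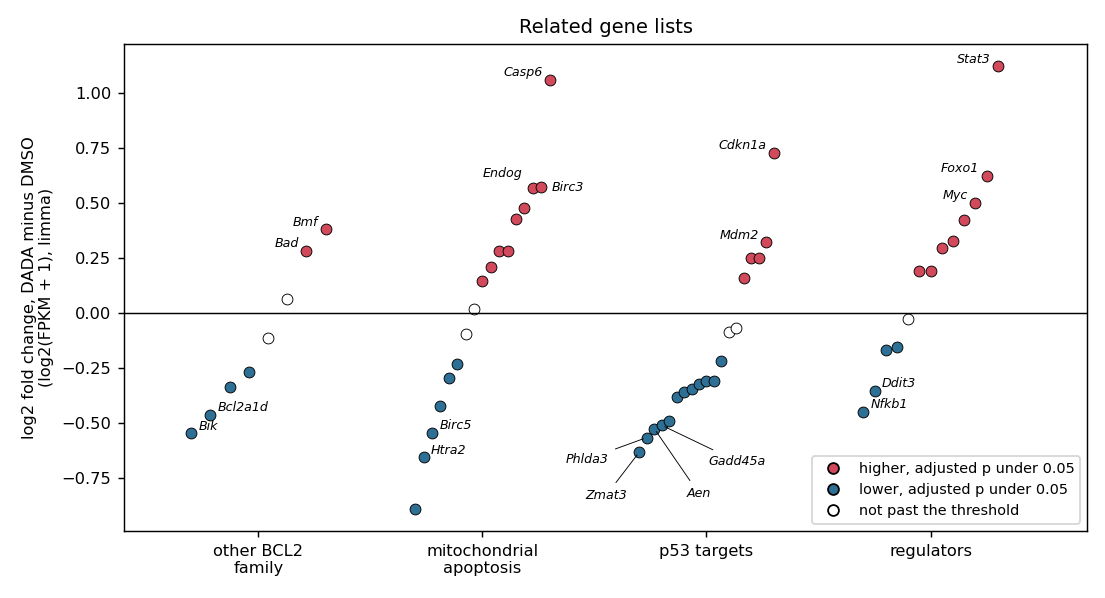
Log2 fold change (DADA minus DMSO, on log2(FPKM + 1), limma) of every tested gene of 4 related lists, in red for higher, blue for lower and white for not past the threshold. Changes run both ways in each list, and 12 of 19 p53 targets are blue, with *Cdkn1a* at 0.73 as the highest of them.

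*Bbc3*, *Pmaip1* and *Bax* are textbook targets of p53, and 20 other targets were measured as well. The part of p53 in any of these changes was not tested. Of the 19 that passed the filter, 5 were higher, 12 lower and 2 not called, with a median log2 fold change of -0.31, beside -0.02 over all genes tested. *Cdkn1a*, which encodes the cell cycle inhibitor p21, rose from 102 ± 1.41 to 170 ± 7.60 FPKM (0.73, limma, adjusted p = 2.46e-08). *Mdm2*, whose protein degrades p53, rose from 44.7 ± 0.578 to 56.1 ± 1.25 FPKM (0.32, limma, adjusted p = 1.25e-06). The RNA-binding protein gene *Zmat3* fell from 14.4 ± 0.479 to 8.96 ± 0.181 FPKM (-0.63, limma, adjusted p = 1.46e-07). *Phlda3*, an AKT repressor, fell from 13.5 ± 0.355 to 8.81 ± 0.718 FPKM (-0.57, limma, adjusted p = 6.47e-06). The nuclease gene *Aen* and the stress gene *Gadd45a* had log2 fold changes of -0.52 and -0.51 (limma, adjusted p = 1.86e-04 and 5.99e-04).

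Of 14 transcription factors known to control BCL2 family genes, 13 passed the filter, of which 8 were higher, 4 lower and 1 not called, with a median log2 fold change of 0.19. *Stat3*, which acts downstream of cytokines and can induce *Bcl2l1* and *Mcl1*, rose from 87.4 ± 1.37 to 191 ± 4.85 FPKM (1.12, limma, adjusted p = 1.35e-10). *Nfkb1*, a subunit of NF-κB, which drives *Bcl2l1* and *Bcl2a1b*, fell from 215 ± 1.95 to 157 ± 3.64 FPKM (-0.45, limma, adjusted p = 5.25e-08). *Rela*, its partner subunit and outside the naming rule, rose by 0.33 on the same scale (limma, adjusted p = 2.82e-05). *Ddit3* (CHOP), which induces *Bcl2l11* and *Bbc3* under endoplasmic reticulum stress, fell from 112 ± 5.36 to 87.6 ± 3.06 FPKM (-0.35, limma, adjusted p = 1.63e-05). *Trp53* itself, outside the rule, went from 88.0 ± 1.85 to 78.9 ± 1.28 FPKM (-0.16, limma, adjusted p = 2.02e-04). The part of these factors in the changes of the members was not tested.

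FOXO factors are known activators of *Bcl2l11* and *Bbc3* and are kept out of the nucleus by AKT. *Foxo1* rose from 8.19 ± 0.168 to 13.1 ± 0.352 FPKM (0.62, limma, adjusted p = 1.30e-07), and *Foxo3*, outside the naming rule, from 7.34 ± 0.228 to 10.2 ± 0.473 FPKM (0.42, limma, adjusted p = 1.13e-05). The promoters of the members were searched, after these values were seen, for the FOXO motif TGTTTAC on both strands, in the 250 bases before each RefSeq start (GRCm38.p6). The search covered windows of 9 of the 10 members, 14 in all, some of which overlap. It left out *Pmaip1*, so nothing is said of the promoter of that gene. The motif was in 2 of the 14, beside 3.17% of all 32851 such windows. The 2 were a window each of *Bcl2l11* and *Bbc3*, and any part of FOXO factors in the rise of these members was not tested. They are shown 5′ to 3′ on the plus strand, with the motif in capitals. The first lies at chr2:128125788-128126037 and holds the motif as its reverse complement GTAAACA, 227 to 221 bases before the start. The second lies at chr7:16310011-16310260, inside an intron of a longer *Bbc3* transcript, with the motif 167 to 161 bases before the start.
*Bcl2l11*: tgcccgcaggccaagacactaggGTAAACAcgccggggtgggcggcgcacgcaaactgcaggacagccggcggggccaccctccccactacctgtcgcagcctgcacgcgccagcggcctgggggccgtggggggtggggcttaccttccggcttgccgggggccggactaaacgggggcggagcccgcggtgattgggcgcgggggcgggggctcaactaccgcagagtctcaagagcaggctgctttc
*Bbc3*: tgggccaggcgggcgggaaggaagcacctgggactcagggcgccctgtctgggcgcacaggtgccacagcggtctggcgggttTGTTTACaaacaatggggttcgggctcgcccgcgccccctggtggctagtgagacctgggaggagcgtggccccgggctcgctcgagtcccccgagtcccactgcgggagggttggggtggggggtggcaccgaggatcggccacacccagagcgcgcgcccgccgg

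The E-box CACGTG, a site of MYC among other factors, was also in 2 of the 14 windows, beside 6.02% of all windows. It lay 9 to 4 bases before a *Bax* start and 64 to 59 bases before another *Bbc3* start. *Myc* rose from 121 ± 4.20 to 172 ± 4.28 FPKM (0.50, limma, adjusted p = 2.13e-07), and its part in the change of either member was not tested. None of the 14 windows held the STAT motif TTCNNNGAA, the κB motif or a pair of p53 core sites. These were in 7.02%, 0.36% and 0.49% of all windows. For p53, the search took only pairs with both cores spelled C-A-T-G, and other spellings of the core were not searched. A *Bbc3* window with neither the FOXO motif nor the E-box holds a pair spelled C-A-A-G and C-T-T-G. The search thus does not show that the windows lack p53 sites. *Pmaip1*, a p53 target, had no window among the 14. A match is a stretch of letters and no measure of binding, and factor binding was not measured.

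The libraries were alike within groups and fitted their label. Pearson correlations across genes were 0.9928 to 0.9949 within groups and 0.9584 to 0.9613 between them. Depth, estimated from the steps between low FPKM values, was 13740000 to 16520000 fragments with DMSO and 14860000 to 18800000 with DADA. The 5 CD8 T cell markers found summed to between 674 and 680 FPKM with DMSO and between 776 and 805 FPKM with DADA. Of 5 B cell markers, *Cd79b* alone reached 1 FPKM, and 2 were at 0 in every library. Of 7 myeloid markers, *Cd68* alone reached 1 FPKM and 4 were at 0 throughout, and the sum of the list was 3.44 to 3.96 FPKM with DMSO and 5.11 to 5.58 FPKM with DADA. B cells and myeloid cells also express *Bcl2a1* copies, and their part in the *Bcl2a1* values was not tested. No NK cell or erythroid marker reached 1 FPKM. Of 3 CD4 T cell markers, *Zbtb7b* alone did, and the sum of that list was 16.1 to 17.2 FPKM with DMSO and 15.2 to 15.7 FPKM with DADA.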

How the data were processed

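Bulk RNA-seq of 8 libraries, 4 per group, was used, with groups taken from the sample titles and the treatment protocol. The deposited values are FPKM for each gene in each library, which the authors made from paired reads of 150 bp. The submitters' processing notes name HISAT2 2.0.5, StringTie 1.3.3, SAMtools 0.1.18 and the builds GRCm39 and GRCh38, whose roles are not given. FPKM values carry no counts, so no count test was run. Depth was estimated from 4431 single-transcript genes. Of their low values, 40.9% to 49.4% lay within 0.1 of a whole fragment, where chance gives 20%, so the depth is approximate.

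Genes reaching 1 FPKM in at least 4 libraries were fitted as log2(FPKM + 1) with limma 3.58.1 in R 4.3.3 (lmFit with a DADA term, eBayes with trend, Benjamini-Hochberg over 10666 genes). The fit was tested on simulated data. Sequences came from RefSeq (GRCm38.p6) and GENCODE M21. In 4 further lists, genes were selected where called with a log2 fold change of at least 0.5 in size, or among the 2 largest called in each direction. Values of some listed genes are not reported here, and counts over lists include them. Members and lists were chosen with earlier results of these data known. The alternatives were a pseudocount of 0.1, no filter, a mean of at least 5 FPKM, TPM, median-ratio and quantile scaling, no trend, a replicate block, each library left out, and the summed *Bcl2a1* copies.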

Additional observations from a re-analysis of the deposited data

Results flagged for a closer look

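In 4 of 62 groups of 4 libraries, over 31 genes, 1 library stood apart from the other 3 of its group, as judged by its gap to the nearest library divided by the range of the group (Dixon's ratio, past its 95% point for 4 values). By chance, 1 in 20 such groups would show this, or 3.1 of those examined. *Bcl2* was at 56.3 FPKM in DMSO 1 and at 59.1 to 59.4 FPKM in the other DMSO libraries (ratio 0.8988). *Bcl2a1d* was at 41.2 FPKM in DADA 4 and at 43.8 to 44.2 FPKM in the other DADA libraries (ratio 0.8588). *Bmf* was at 1.11 FPKM in DMSO 1 and at 0.860 to 0.903 FPKM in the other DMSO libraries (ratio 0.8336). *Zmat3* was at 13.7 FPKM in DMSO 4 and at 14.6 to 14.8 FPKM in the other DMSO libraries (ratio 0.8305). In each of the 4 genes the groups did not overlap with that library included. The cause was not tested.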

How the results depend on the processing

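Over 16 settings, the 9 members other than *Bak1* kept their direction and their call (highest adjusted p 0.00680, *Bax*, limma), and 5 members were called higher in every setting. The number called lower was 5 or, where the call of *Bak1* was lost, 4. *Bak1* lost its call without the filter (limma, adjusted p = 0.0817), with TPM (0.111), median-ratio (0.0509) and quantile (0.125) scaling, without the trend (0.0648) and with each of 4 libraries left out. Deviations from the group means correlated at -0.12 to 0.10 between same-numbered libraries and at -0.27 to 0.13 between differently numbered ones. Whether cultures were paired by number is not given, and correlations this weak cannot exclude it. With the replicate block, 3251 genes were called higher and 3744 lower, and 5 and 4 members, *Bak1* being lost (adjusted p = 0.101). Over the settings, 2458 to 4007 genes were called higher and 3283 to 4116 lower, and the median change of all genes stayed between -0.05 and 0.01. Of the 21 list genes selected by rule, 19 kept direction and call wherever tested. *Bik* lost its call without the filter (limma, adjusted p = 0.0611) and without each of 5 libraries, and *Bmf* with quantile scaling (0.18, limma, adjusted p = 0.0630). *Bik* and *Bmf* were not in the fit with a mean of at least 5 FPKM. FPKM carry no counts, so depth limits *Bbc3* most, and isoforms, strand and copy sharing could not be checked.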
